A study of Mus musculus with 24 samples.

Results

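The genes described here are 8 heat shock genes (Hspa1a, Hspa1b, Hspa8, Hsp90aa1, Hsph1, Dnajb1, Hspb1 and Chordc1) and 2 cold-inducible genes (Cirbp and Rbm3). They were chosen by name: every probe whose gene name in the scanner files was one of the 10 was taken, which gave 15 of the 55681 probes on the array and 9 of its 34844 gene names. No probe was named Hspa1b. Each of the 15 probes was a single spot, was well above background on all 24 arrays and was saturated on none. All 9 gene names therefore entered every test, and none did so only through a group in which it was high.

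Heat shock proteins are chaperones that fold new or damaged proteins, and the transcription factor HSF1 switches many of their genes on when proteins unfold or temperature rises. CIRBP and RBM3 are RNA-binding proteins whose mRNAs accumulate with mild cooling. Because body temperature follows a daily rhythm, transcripts of both kinds cycle in mouse liver in antiphase to each other, partly apart from the liver's own clock.

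The mice were males of 2 months on a C57BL/6 background, and all of them carried human PER1, a repressor of the circadian clock. In the mutant mice human PER1 held the S714G substitution, and in the control mice it held the unchanged S714. How the human gene was introduced or what drives it is not given in the sources used here. After 10 days of light-dark cycles, liver and white adipose tissue were taken at ZT1 and ZT13, where ZT is zeitgeber time in hours and lights come on at ZT0, which gave 8 groups of 3 arrays and 24 arrays in all. The series describes the 3 as independent repeats. Nothing says more of whether they were separate animals, so the p-values measure the spread between these samples.

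Each RNA was labelled with Cy3 and hybridised to a 1-colour Agilent mouse array of 62976 spots. Between 45.5% and 71.2% of an array's probes were well above background. Values below are log2 of the scanner's processed signal relative to the array's own 75th percentile, so 0 is the 75th percentile. They compare 1 probe between samples, never 1 gene with another. A gene is said to rise, fall or change where limma's moderated test gave a Benjamini-Hochberg adjusted p below 0.05 over all genes tested in that tissue (21869 in liver, 23409 in adipose tissue). SE is the standard error from that fit.

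Tissue and clock labels were read first. All 10 hepatocyte markers were well above background on all 12 liver arrays, and all 10 adipocyte markers on all 12 adipose arrays. The adipocyte marker Lep was above background on no liver array. In adipose tissue 7 of 10 hepatocyte markers were above background on all 12 arrays, and their mean level was 2.86 to 5.44 in control ZT1, -3.16 to 2.50 in mutant ZT1, 0.67 to 2.88 in control ZT13 and -0.11 to 1.66 in mutant ZT13, against 6.83 to 7.68 in liver. The clock gene Arntl, which encodes the activator BMAL1, read 0.67 to 1.17 at ZT1 and -2.66 to -1.87 at ZT13 in control liver, and -1.87 to -1.71 at ZT1 and 1.43 to 1.69 at ZT13 in mutant liver. Its output gene Dbp ran the other way: 2.26 to 2.72 and then 5.59 to 5.97 in control liver, and 5.61 to 5.76 and then 2.06 to 2.39 in mutant liver. In adipose tissue Arntl likewise read 0.17 to 0.53 and then -4.90 to -3.72 in control mice, and -2.37 to -1.38 and then 1.03 to 1.32 in mutant mice. Arntl was thus high at ZT1 in control mice and at ZT13 in mutant mice, in both tissues.

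The 24 arrays lay on 3 slides, which were also scanned separately, and slides follow the groups closely. On slide 1 were all control ZT1 arrays, liver and adipose, with 2 of the 3 from mutant adipose ZT1. Slide 2 held the last of these 3, the mutant liver ZT1 arrays, the control adipose ZT13 arrays and control liver ZT13 replicate 1. Slide 3 held the other 2 control liver ZT13 arrays and all mutant ZT13 arrays. No slide held both times of 1 genotype in 1 tissue, so a change over time within a genotype cannot be told apart from its slides except through the 2 groups that span slides. Control and mutant samples of 1 tissue and time met on 1 slide in just these cases: liver at ZT13 on slide 3 (2 and 3 arrays) and adipose ZT1 on slide 1 (3 and 2 arrays).

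Hspa1a encodes the inducible cytosolic HSP70, and its transcript is scarce in unstressed cells. Its single probe lies at chr17:35107117-35107176 on the minus strand (mm9) and also lists the accession of the neighbouring copy Hspa1b, so its signal may come from either gene. The probe is shown because every Hspa1a value below rests on it.
Hspa1a probe A_55_P2068459: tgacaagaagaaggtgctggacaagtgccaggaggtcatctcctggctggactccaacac

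In control liver, Hspa1a read -0.94, -0.36 and -0.75 at ZT1 and 1.88, 1.75 and 1.81 at ZT13. In mutant liver it read -1.07, -0.55 and -0.41 at ZT1 and 2.51, 2.03 and 1.58 at ZT13. All 6 liver arrays at ZT13 lay above all 6 at ZT1, in both genotypes. The change was 2.50 on the log2 scale in control mice (SE 0.25, 5.65-fold, adjusted p = 3.49e-05) and 2.72 in mutant mice (SE 0.25, 6.59-fold, adjusted p = 0.000483). By p-value it had rank 11 of 21869 genes in mutant liver and rank 367 in control liver. The genotype difference of this change was 0.22 (95% interval -0.55 to 1.0, adjusted p = 0.654). Mutant and control liver differed by 0.01 at ZT1 (interval -0.54 to 0.56) and by 0.23 at ZT13 (interval -0.32 to 0.78).

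In white adipose tissue Hspa1a stayed near the 75th percentile at both times. It read -0.01, -0.28 and -0.48 in control ZT1, 0.13, -0.75 and 0.09 in mutant ZT1, -0.03, 0.28 and -0.28 in control ZT13, and -0.35, -0.18 and -0.12 in mutant ZT13. The 4 adipose groups overlapped. The difference between ZT13 and ZT1 was 0.24 in control mice (interval -0.34 to 0.83, adjusted p = 0.504) and -0.04 in mutant mice (interval -0.63 to 0.55, adjusted p = 0.933). Ordered by mean, the 2 liver groups at ZT1 were lowest (-0.68 ± 0.30 in control and -0.68 ± 0.35 in mutant mice, SD, n = 3), the 4 adipose groups came next (-0.25 to -0.01), and the 2 liver groups at ZT13 were highest (1.81 ± 0.06 and 2.04 ± 0.46). In that order the arrays of neighbouring groups overlapped at every step except that from control adipose ZT13 to control liver ZT13.

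In liver 3 other genes rose in both genotypes. Dnajb1 encodes an HSP40, the J-domain partner that hands substrates to HSP70. It read 2.54, 2.99 and 2.98 at ZT1 and 4.01, 4.15 and 3.97 at ZT13 in control liver, and 2.75, 2.87 and 2.77 at ZT1 and 4.22, 4.05 and 3.88 at ZT13 in mutant liver. The times did not overlap in either genotype, and the 2 genotypes had nearly the same means at each time. Dnajb1 rose by 1.20 in control liver (SE 0.16, 2.30-fold, adjusted p = 0.000176) and by 1.25 in mutant liver (SE 0.16, 2.38-fold, adjusted p = 0.00402). The genotype difference of the change was 0.05 (interval -0.45 to 0.54).

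Hsph1 encodes HSP110, a nucleotide exchange factor that resets HSP70. Its brighter probe (chr5:150419744-150419803, minus strand, mm9) read 1.88, 2.37 and 2.07 at ZT1 and 3.68, 3.21 and 3.09 at ZT13 in control liver, and 2.22, 2.79 and 2.92 at ZT1 and 4.02, 3.82 and 4.0 at ZT13 in mutant liver. Every ZT13 array lay above every ZT1 array. Hsph1 rose by 1.23 in control liver (SE 0.22, adjusted p = 0.00104) and by 1.3 in mutant liver (SE 0.22, adjusted p = 0.0148), with a genotype difference of 0.08 (interval -0.61 to 0.76). The call in mutant liver was lost without any of 5 of the 6 arrays (all but mutant liver ZT1 replicate 3). With every probe fitted, the second Hsph1 probe (chr5:150420110-150420169) rose by 1.55 in control liver (adjusted p = 0.00125) and by 1.39 in mutant liver (adjusted p = 0.0334).

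Chordc1 encodes CHORD-containing protein 1 (morgana), an HSP90 co-chaperone. It read 0.97, 0.89 and 0.89 at ZT1 and 2.02, 2.02 and 1.97 at ZT13 in control liver, and 1.62, 1.92 and 1.65 at ZT1 and 2.62, 2.67 and 2.56 at ZT13 in mutant liver. It rose by 1.09 in control liver (SE 0.13, adjusted p = 8.91e-05) and by 0.88 in mutant liver (SE 0.13, adjusted p = 0.00798), and the genotype difference of the change was -0.20 (interval -0.60 to 0.19). The 4 liver groups did not overlap at all, since Chordc1 was also higher in mutant than in control liver at each time.

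**Figure D1:**
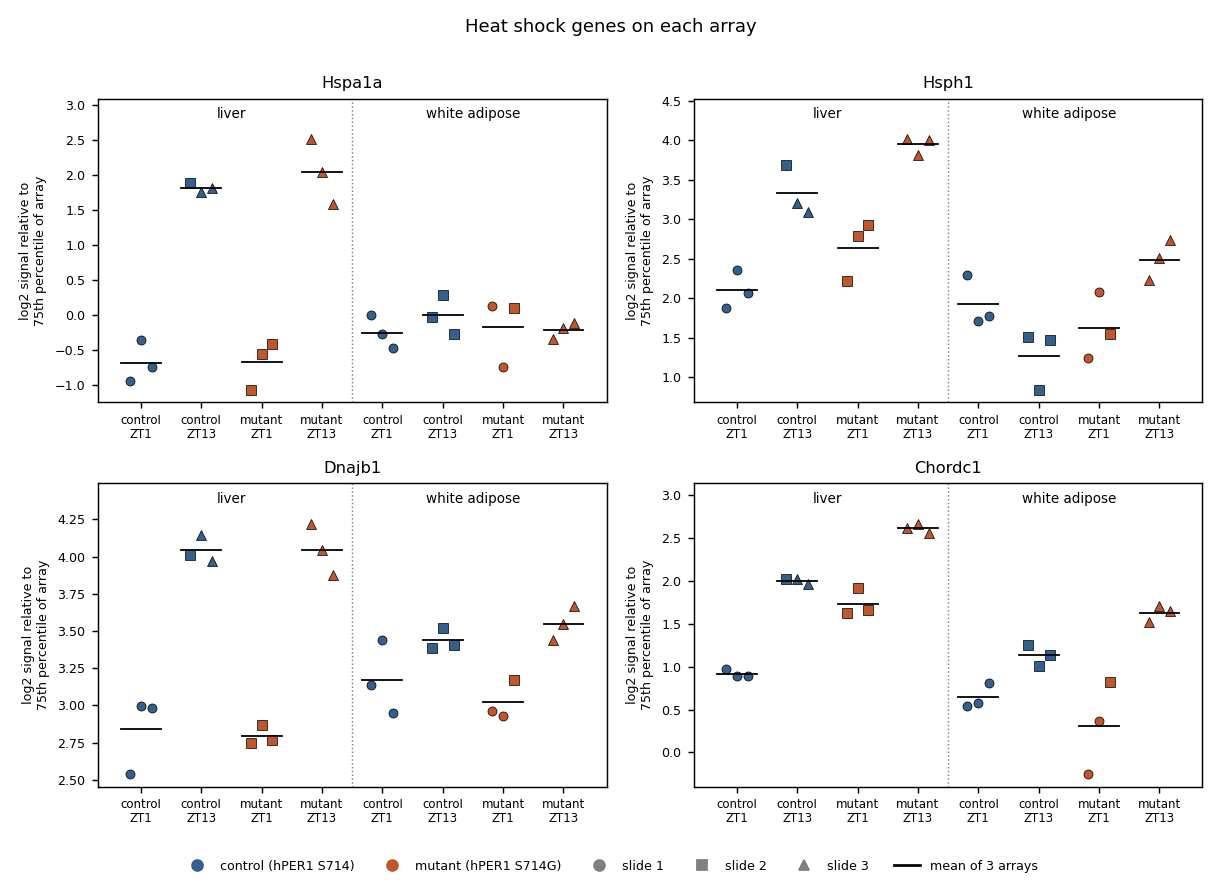
Log2 signal relative to the array's 75th percentile (vertical axis) of Hspa1a, Hsph1, Dnajb1 and Chordc1 on each of the 24 arrays, by tissue, genotype and time (horizontal axis); each point is 1 array, its shape gives the slide and the line the mean of 3 arrays. In liver all ZT13 points of Hspa1a (1.58 to 2.51) lie above all ZT1 points (-1.07 to -0.36) in both genotypes, while the 4 adipose groups overlap between -0.75 and 0.28.

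The other heat shock genes passed the test over time in control liver and missed it in mutant liver, a difference that was itself called only for Hspb1. Hspa8 encodes the constitutive cytosolic HSC70, and it read 4.95, 6.21 and 5.78 at ZT1 and 6.49, 6.86 and 6.64 at ZT13 in control liver. Its mutant liver arrays read 6.38, 6.35 and 6.22 at ZT1 and 7.0, 6.99 and 6.53 at ZT13. Hspa8 rose by 1.02 in control liver (SE 0.27, adjusted p = 0.00914). The difference in mutant liver was 0.52 (interval -0.08 to 1.12, adjusted p = 0.436), and the 2 changes differed by -0.50 (interval -1.34 to 0.34). Of its 3 probes, 2 rose in control liver with every probe fitted. The other (chr9:40613223-40613282) read 0.47 higher (adjusted p = 0.191).

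Hsp90aa1 encodes the inducible cytosolic HSP90 alpha, which matures kinases and steroid receptors. It read 3.15, 3.27 and 2.94 at ZT1 and 3.84, 4.10 and 3.75 at ZT13 in control liver, and 3.88, 3.61 and 3.61 at ZT1 and 4.04, 4.20 and 3.78 at ZT13 in mutant liver. Control ZT1 was the only liver group set apart from the others. Hsp90aa1 rose by 0.77 in control liver (SE 0.17, adjusted p = 0.00281), against a difference of 0.31 in mutant liver (interval -0.06 to 0.67, adjusted p = 0.457). The 2 changes differed by -0.47 (interval -0.98 to 0.05, adjusted p = 0.147).

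Hspb1 encodes the small heat shock protein HSP25/27, an ATP-independent holdase. It read 3.64, 3.54 and 3.46 at ZT1 and 2.82, 2.61 and 2.47 at ZT13 in control liver, a fall by 0.91 (SE 0.17, 1.88-fold, adjusted p = 0.00125). In mutant liver it read 3.07, 3.27 and 3.62 at ZT1 and 3.84, 3.58 and 3.57 at ZT13, a difference of 0.34 (interval -0.03 to 0.72, adjusted p = 0.401). Control liver at ZT13 was the lowest group, below all other arrays of either tissue. The genotypes differed in the change over time by 1.26 (SE 0.24, adjusted p = 0.00398).

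Over the 9 gene names, 7 rose and 2 fell between ZT1 and ZT13 in control liver. The 2 were Hspb1 and Cirbp, the latter on a probe whose values split by slide, as given below. Over all genes 51.2% changed there, 21.3% upward and 29.9% downward, so a call in this contrast is common, and the arrays of the 2 times did not overlap for 55.1%. When arrays were scaled to their median, the split over all genes was 46.9% upward and 9.68% downward, and that of the named genes was 7 and 1 (Hspb1 was not called), with the median of all genes at 0.49 in place of -0.15. Quantile normalization gave 6 upward and 2 downward (Rbm3 was not called). In mutant liver 4 of the 9 rose (Hspa1a, Dnajb1, Chordc1 and Hsph1) and none fell, where 1.98% of all genes changed, 1.03% rose and the times did not overlap for 30.5%. The genotype by time difference was called for 2 of the 9 (Hspb1 and Cirbp, both higher), against 31.2% of all genes, 18.2% higher and 13% lower. The other Cirbp probe, which did not split by slide, gave -0.74 (adjusted p = 0.0439 with every probe fitted). Under median scaling those 2 were not called, and 3 were called lower (Chordc1 at -0.75, Rbm3 at -0.99 and Hsp90aa1 at -1.01), with 5.50% of all genes higher and 27.1% lower.

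**Figure D2:**
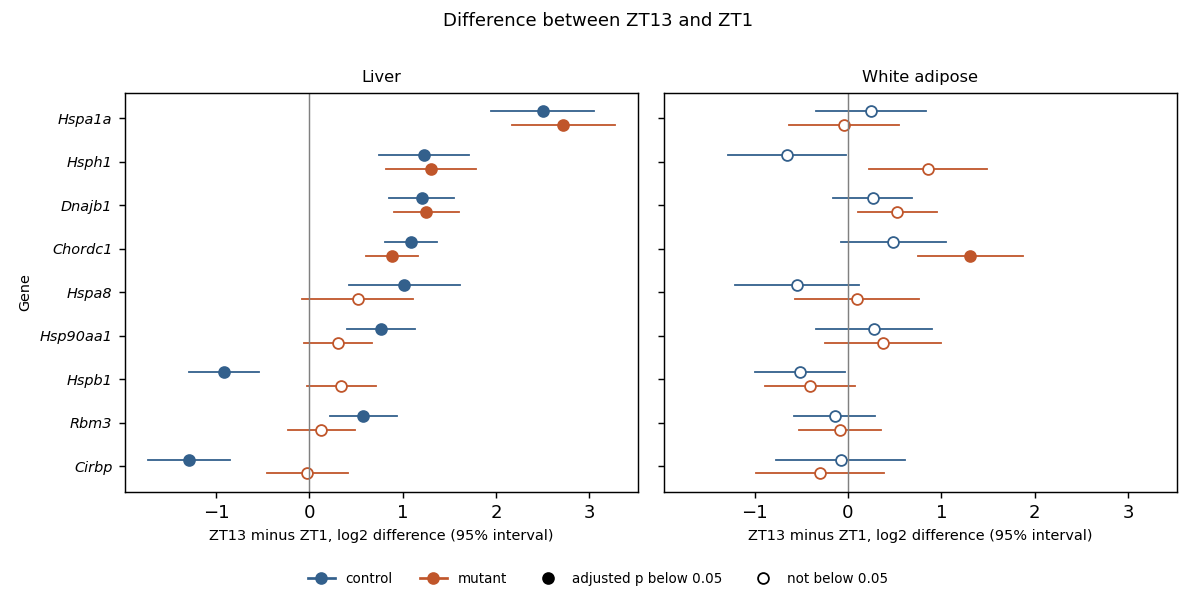
Difference between ZT13 and ZT1 (horizontal axis, log2, with 95% intervals from limma) for the 9 gene names in liver (left) and white adipose tissue (right), control mice in blue and mutant mice in orange; filled points have an adjusted p below 0.05. Hspa1a, Hsph1, Dnajb1 and Chordc1 are filled in both genotypes in liver, whereas Hspb1 and Cirbp are filled and below 0 in control liver only. Cirbp is drawn from probe A_55_P1985001, on which slide 1 arrays read high, in liver but from A_51_P272106 in adipose tissue. On the former, adipose means were also lower at ZT13: 0.77 against 1.47 in control mice and 0.63 against 1.81 in mutant mice.

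The change over time was then set against the slides. With slide as a fixed term over all 24 arrays, which rests on the 2 groups that span slides, Hspa1a differed by 2.16 in control liver (SE 0.54, adjusted p = 0.0816) and rose by 2.82 in mutant liver (SE 0.47, adjusted p = 0.0113). Slide 1 is joined to the others only by mutant adipose ZT1, which has 1 array on slide 2. For control liver ZT1 this term therefore carries an adipose difference over to liver. With slide as a random block, Hspa1a, Dnajb1 and Hsph1 rose in control liver (2.37, 1.11 and 1.36, adjusted p = 0.000975, 0.00714 and 0.0323). In mutant liver Hspa1a and Dnajb1 rose (2.82 and 1.26, adjusted p = 0.000642 and 0.0137). The Chordc1 rise was lost with either slide term in both genotypes, and so was the Hsph1 rise in mutant liver. Within slide 2, control liver ZT13 replicate 1 can be set beside the 3 mutant liver ZT1 arrays, across genotypes. Hspa1a read 1.88 on the former and -0.68 on average on the latter, a difference of 2.56, and the same difference was 1.21 for Dnajb1 and 1.04 for Hsph1. It was 0.29 for Chordc1, 0.18 for Hspa8 and 0.13 for Hsp90aa1. Marker lists of immune cells were also lower at ZT13 in control liver, and so were some lists of cells foreign to liver. The mean level of 5 B-cell markers was -1.99 to -1.43 at ZT1 and -3.68 to -3.30 at ZT13 there, and -2.70 to -2.02 and -3.69 to -2.81 in mutant liver. That of 7 T-cell markers was -2.12 to -1.96 and -3.24 to -2.66 in control liver, and -2.55 to -2.39 and -3.04 to -2.41 in mutant liver. That of 10 macrophage markers was 2.71 to 2.89 and 2.42 to 2.63 in control liver, and 2.78 to 2.95 and 2.24 to 2.69 in mutant liver. On all liver arrays 2 of 6 listed B-cell, 3 of 8 T-cell and 10 of 10 macrophage markers were above background, Cd8a was so on none, and their part in the changes over time was not tested. In control liver 4 skeletal muscle markers averaged -4.19 to -3.58 at ZT1 and -5.08 to -4.48 at ZT13. Of 7 such markers listed, 1 was above background on all liver arrays and 4 on none. Of 7 listed epididymis and testis markers, 0 were above background on all liver arrays, and 3 averaged -3.82 to -2.11 and -5.45 to -4.85. Adipocyte markers overlapped (-1.54 to -1.27 and -1.49 to -1.09), and erythroid markers were higher at ZT13 (1.78 to 1.96 and 2.08 to 2.64). The array medians were -3.20 to -3.06 and then -3.85 to -3.67. The falls of Hspb1 and Cirbp in control liver were lost with either slide term.

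The comparison of tissues was added after the data were seen. The change from ZT1 to ZT13 was larger in liver than in adipose tissue for Hspa1a, Hsph1 and Dnajb1 in control mice, by 2.25 (SE 0.37, adjusted p = 0.00261), 1.88 (SE 0.37, adjusted p = 0.00923) and 0.94 (SE 0.23, adjusted p = 0.0331), where 2.65% of all 24341 genes differed and 1.21% in this direction. In mutant mice it was larger for Hspa1a alone of the 9, by 2.76 (SE 0.37, adjusted p = 0.0035), rank 2 of 24341 genes by p-value, where 1.24% differed, 0.908% in this direction. Hsph1 differed by 0.44 there (adjusted p = 0.49) and Dnajb1 by 0.72 (adjusted p = 0.118). The Hspa1a differences stayed past the threshold with slide as a fixed term (2.32 and 3.03, adjusted p = 0.0209 and 0.0093). The Dnajb1 difference in control mice did not (0.91, adjusted p = 0.138), and it was lost in 14 of 21 alternatives, among them 8 of the 12 left-out arrays. Without mutant adipose ZT1 replicate 3, 3 more of the 9 were called in mutant mice, which made 4: the change over time was larger in liver for Hspb1 and Dnajb1 and smaller in liver for Chordc1.

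The 250 bases before the transcription start were scanned for the core of the heat shock element, since HSF1 binds inverted GAA units. The windows are RefSeq's for GRCm38.p6. The search used GAANNTTC and TTCNNGAA, which cover both strands. Either core occurred in 12.8% of 32851 mouse windows, and a 3-unit heat shock element, which adds 1 more inverted unit at the same spacing, in 0.466%. Windows were matched for 7 of the 10 genes (not Hspa8, Hsp90aa1 or Rbm3). Those of the 4 genes that rose in both genotypes, and of Hspb1, which fell in control liver, are shown, with cores in capitals.
Hspa1a, chr17:34972157-34972406, minus strand: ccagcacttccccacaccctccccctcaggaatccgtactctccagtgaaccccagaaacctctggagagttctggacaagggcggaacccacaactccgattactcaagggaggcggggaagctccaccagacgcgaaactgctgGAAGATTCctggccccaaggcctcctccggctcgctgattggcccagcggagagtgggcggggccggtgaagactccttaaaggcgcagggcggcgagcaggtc
Hsph1, chr5:149636337-149636586, minus strand: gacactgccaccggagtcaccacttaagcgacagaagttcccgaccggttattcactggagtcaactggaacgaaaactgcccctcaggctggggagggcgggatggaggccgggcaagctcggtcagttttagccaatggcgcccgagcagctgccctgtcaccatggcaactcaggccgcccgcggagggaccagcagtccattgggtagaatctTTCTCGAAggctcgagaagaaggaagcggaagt
Dnajb1, chr8:83607925-83608174, plus strand: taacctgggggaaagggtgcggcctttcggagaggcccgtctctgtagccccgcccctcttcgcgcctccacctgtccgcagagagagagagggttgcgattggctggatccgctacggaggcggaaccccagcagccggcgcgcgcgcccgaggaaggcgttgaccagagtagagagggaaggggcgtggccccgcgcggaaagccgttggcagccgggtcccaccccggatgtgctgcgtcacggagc
Chordc1, chr9:18292017-18292266, plus strand: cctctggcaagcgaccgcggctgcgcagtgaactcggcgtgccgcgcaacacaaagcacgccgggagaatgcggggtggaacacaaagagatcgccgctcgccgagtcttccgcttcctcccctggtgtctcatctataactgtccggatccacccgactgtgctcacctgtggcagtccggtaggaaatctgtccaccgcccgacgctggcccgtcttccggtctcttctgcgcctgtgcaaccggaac
Hspb1, chr5:135887669-135887918, plus strand: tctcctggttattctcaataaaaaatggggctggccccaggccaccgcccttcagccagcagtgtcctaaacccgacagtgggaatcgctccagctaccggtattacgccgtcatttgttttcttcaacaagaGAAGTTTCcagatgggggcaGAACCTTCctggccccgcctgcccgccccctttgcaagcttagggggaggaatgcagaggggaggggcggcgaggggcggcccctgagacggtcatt
Hspa1a held 1 core, 104 bases before the start, and so did Hspa1b at the same distance. Their windows had the same base at 247 of 250 positions (98.8%). Hsph1 held 1 core, 33 bases before the start shown and 54 before a second listed start. Hspb1 held 2 cores, 117 and 97 bases before its start. Neither core occurred in these letters in the windows of Dnajb1, Chordc1 or Cirbp, and no window held a 3-unit element. The E-box CACGTG, bound by clock factors and found in 6.02% of windows, occurred once, 19 bases before the second Hsph1 start. No D-box (TTATGNAAT or ATTNCATAA, 0.758% of windows) was found in any of them.

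Between genotypes in liver, Chordc1 was higher in mutant mice at both times and Hspb1 at ZT13, while Hspa1a and Dnajb1 had differences near 0. At ZT1, Chordc1 was higher in mutant liver by 0.82 (SE 0.13, adjusted p = 0.000698) and Hsp90aa1 by 0.58 (SE 0.17, adjusted p = 0.0152). Hspa8 and Hsph1 were at 0.67 and 0.54 (adjusted p = 0.0631 and 0.0655), and Dnajb1 was at -0.04 (interval -0.39 to 0.31). The test called 3 of the 9 (2 higher and Cirbp lower), against 45.4% of all genes, 17.9% higher and 27.5% lower; the genotypes did not overlap for 52.4%. Under median scaling 4 were called higher and 1 lower, with 36.4% of all genes higher and 8.42% lower. Quantile normalization gave 3 and 1. This contrast and the control change over time share the 3 control liver ZT1 arrays, all on slide 1, and none of the 3 calls was made with slide as a fixed or random term. The Hsp90aa1 call was also lost without control liver ZT1 replicate 3 (and without mutant liver ZT1 replicate 1). Without control liver ZT1 replicate 2, 5 of the 9 were called.

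At ZT13 Hspb1 was higher in mutant liver by 1.03 (SE 0.17, 2.04-fold, adjusted p = 0.00768), with no overlap between the genotypes, as for 29.3% of all genes. Within slide 3 the difference was 1.12, with 3.84, 3.58 and 3.57 in mutant against 2.61 and 2.47 in control liver (adjusted p = 0.0234). This call stood under all 17 alternatives (0.94 to 1.12). Chordc1 was higher by 0.61 (SE 0.13, adjusted p = 0.0251; 0.62 within slide 3), but its adjusted p passed 0.05 without any 1 of the 6 arrays. Of the 9, 2 were called, both higher, against 3.04% of all genes and 1.51% higher. Hsph1 was at 0.62 (adjusted p = 0.191) and, within slide 3 alone, at 0.79 (adjusted p = 0.0366). Rbm3 was at -0.51 (adjusted p = 0.136), with mutant arrays at 3.16, 3.44 and 3.31 and control arrays at 3.84, 3.79 and 3.82, which did not overlap.

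**Figure D3:**
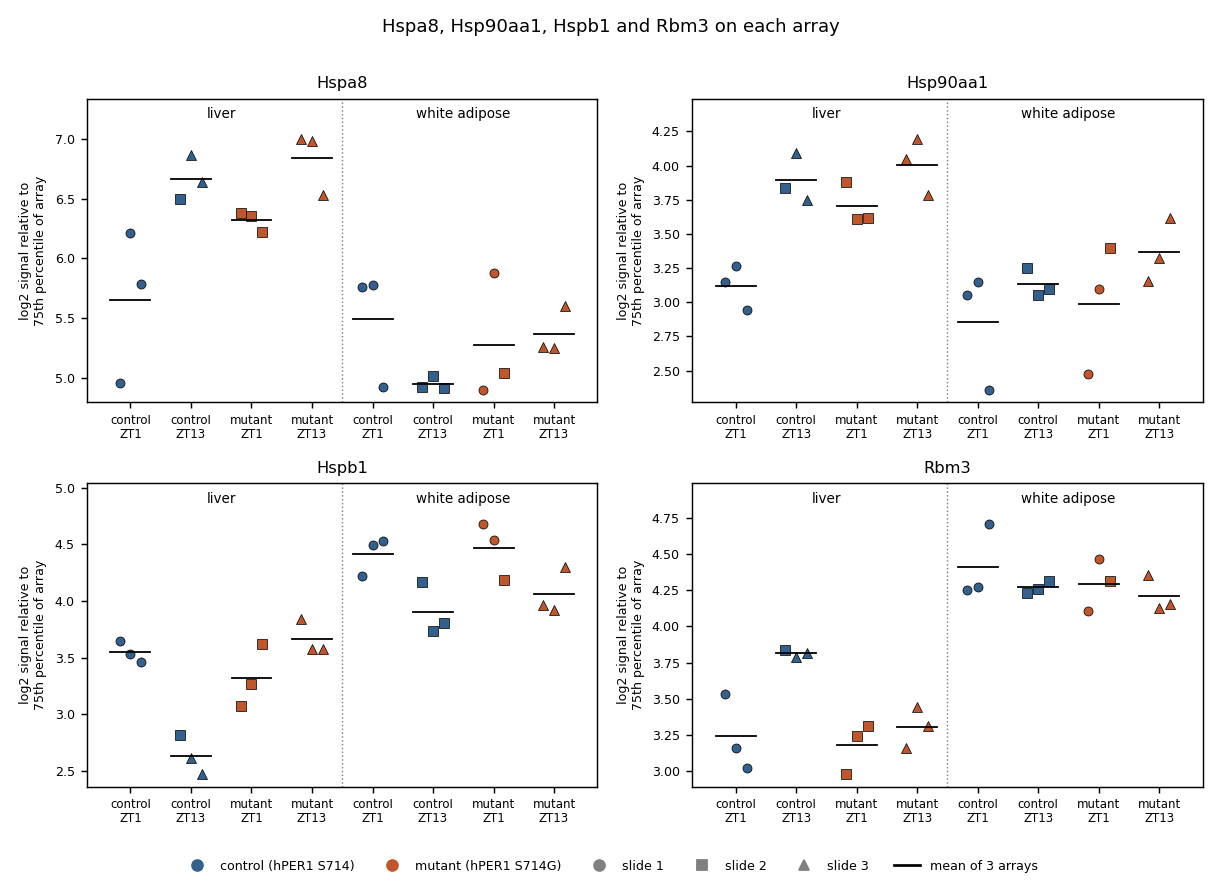
Log2 signal relative to the array's 75th percentile (vertical axis) of Hspa8, Hsp90aa1, Hspb1 and Rbm3 on each array, by tissue, genotype and time; points, shapes and lines as for Hspa1a. For Hspb1, control liver at ZT13 (2.47 to 2.82) lies below every other group, and for Rbm3 the same group (3.79 to 3.84) lies above the other liver groups.

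Whether the 2 cold-inducible genes moved together depended on the probes compared, as probes of 1 gene differed. Rbm3 rose in control liver by 0.58 (SE 0.16, adjusted p = 0.0125), from 3.53, 3.16 and 3.02 at ZT1 to 3.84, 3.79 and 3.82 at ZT13, and read 0.13 higher in mutant liver (interval -0.23 to 0.49). A second Rbm3 probe (chrX:7719656-7719715, minus strand) rose by 0.88 in control liver with every probe fitted (adjusted p = 0.00151). The last (chrX:7718033-7718092, minus strand) fell by 1.43 there (adjusted p = 0.00709) and by 1.87 in control adipose tissue (adjusted p = 0.035), the opposite direction. On that last probe all 8 arrays of slide 1 read -1.44 to -0.38, and the 16 arrays of slides 2 and 3 read -3.27 to -0.95.

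Cirbp has 2 probes, both on the plus strand. They are printed because they disagree.
Cirbp probe A_51_P272106, chr10:79634274-79634333: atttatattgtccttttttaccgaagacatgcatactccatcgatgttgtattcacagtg
Cirbp probe A_55_P1985001, chr10:79635422-79635481: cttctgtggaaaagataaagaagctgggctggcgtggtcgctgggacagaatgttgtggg
The second, which the array design ties to an Ensembl transcript only, was the brighter in liver and so stands for Cirbp there. It read 1.96, 1.40 and 1.82 in control liver at ZT1 and 0.78, 0.41 and 0.14 at ZT13, and 0.67, 0.53 and 0.35 in mutant liver at ZT1 and 0.49, 0.38 and 0.63 at ZT13. It fell by 1.29 in control liver (SE 0.20, adjusted p = 0.00042), was lower in mutant liver at ZT1 by 1.21 (SE 0.20, adjusted p = 0.000894) and gave a genotype by time difference of 1.27 (SE 0.28, adjusted p = 0.00769). Its 8 arrays on slide 1, of both tissues, read 1.29 to 2.48, and its 16 arrays on slides 2 and 3 read 0.14 to 0.94. The 3 mutant adipose ZT1 arrays show this within 1 group: 2.48 and 2.22 on slide 1 and 0.72 on slide 2.

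On the first Cirbp probe the slide 1 arrays overlapped those of the other slides. It read 1.10, 0.55 and 0.86 in control liver at ZT1, 0.72, 1.0 and 0.96 at ZT13, and 0.84, 0.62 and 0.71 in mutant liver at ZT1. Mutant liver at ZT13 was the lowest group, at -0.21, 0.20 and 0.12, below all other liver arrays. With every probe fitted, this probe was lower in mutant than control liver at ZT13 by 0.86 (adjusted p = 0.0266; -0.95 within slide 3), read 0.06 higher at ZT13 in control liver (adjusted p = 0.806) and gave a genotype by time difference of -0.74 (adjusted p = 0.0439), of opposite sign to the other probe's.

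**Figure D4:**
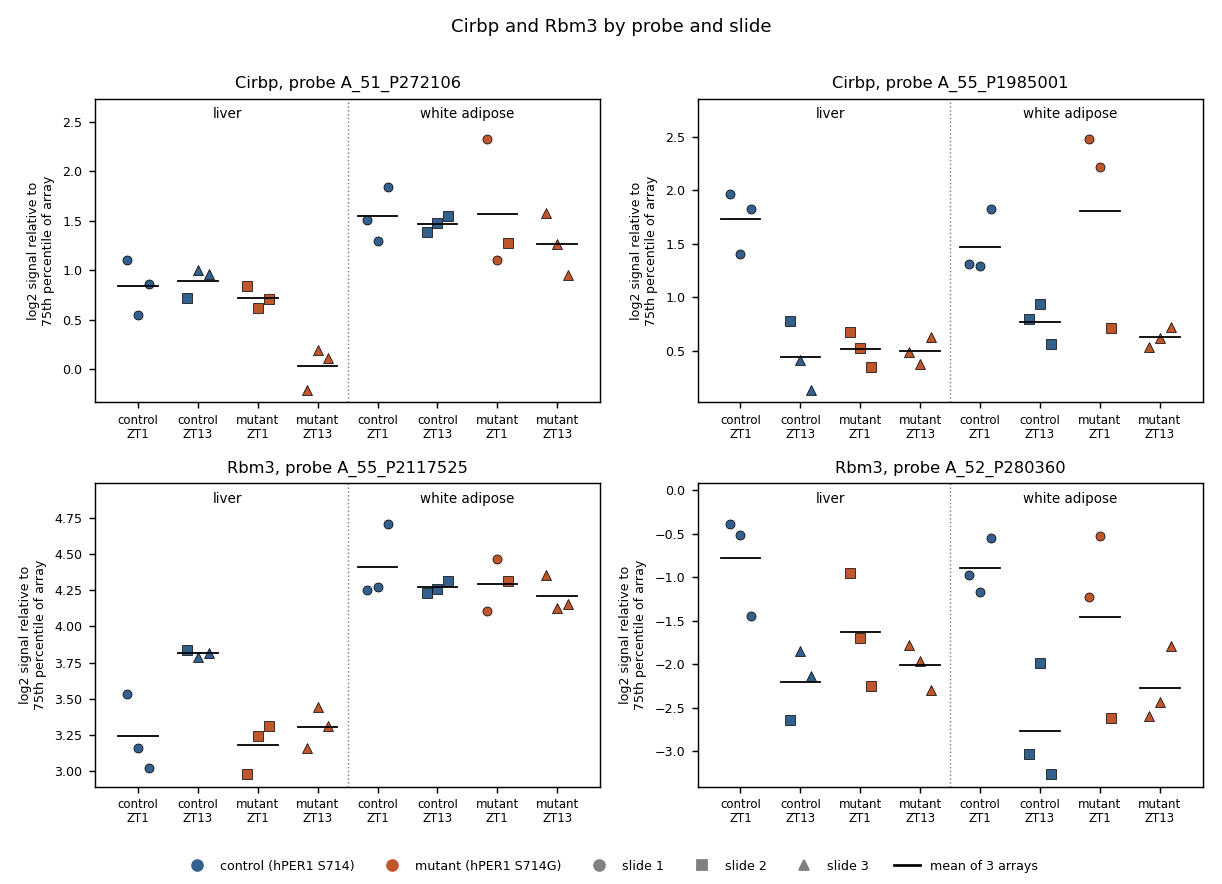
Log2 signal relative to the array's 75th percentile (vertical axis) of 2 Cirbp probes and 2 Rbm3 probes on each array, by tissue, genotype and time; point shape gives the slide. On the right-hand probes the circles (slide 1) lie high in both tissues, from 1.29 to 2.48 for Cirbp and from -1.44 to -0.38 for Rbm3, while the left-hand probes show no such split.

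In white adipose tissue few of these genes passed the test. Between genotypes 0 of the 9 were called by limma at ZT1, where 0% of all genes were called and 0 of the 9 had an unadjusted p below 0.05. At ZT13 it was 0 of 9, with 0.0427% of all genes called and 1 of the 9 (Hsph1) at an unadjusted p below 0.05. Hsph1 read 1.51, 0.84 and 1.48 in control and 2.23, 2.51 and 2.74 in mutant adipose tissue at ZT13. The groups did not overlap, as for 25.3% of all genes. The difference was 1.21 (SE 0.29, unadjusted p = 0.00135, adjusted p = 0.338), and the second probe gave 1.23 (adjusted p = 0.651). The control arrays lay on slide 2 and the mutant arrays on slide 3, so genotype and slide cannot be told apart there.

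Over time, 0 of the 9 were called in control adipose tissue (15% of all genes were, and 2 of the 9, Hspb1 at -0.51 and Hsph1 at -0.65, had an unadjusted p below 0.05). The times did not overlap for Hspb1, Hsph1 and Chordc1 there, as for 50.3% of all genes. In mutant adipose tissue only Chordc1 was called, where 1.9% of all genes were, 0.38% upward. It read -0.26, 0.37 and 0.82 at ZT1 and 1.52, 1.70 and 1.65 at ZT13, a rise by 1.31 (SE 0.26, 2.48-fold, adjusted p = 0.0294), with no overlap, as for 26.8% of all genes. The call was lost with slide as a fixed term (0.84, adjusted p = 0.72) and without any of 5 of the 6 arrays (all but mutant adipose ZT1 replicate 3, the array on slide 2). Control adipose tissue read 0.54, 0.58 and 0.81 at ZT1 and 1.25, 1.0 and 1.14 at ZT13, a difference of 0.49 (adjusted p = 0.176). In mutant adipose tissue Hsph1 at 0.86 and Dnajb1 at 0.53 also had an unadjusted p below 0.05 over time (adjusted p = 0.115 and 0.132). Their times did not overlap either. The genotype by time difference was called for 0 of the 9, against 0.124% of all genes, with Hsph1 at 1.51 (adjusted p = 0.35) and Chordc1 at 0.82 (adjusted p = 0.687) the 2 at an unadjusted p below 0.05. Beside the hepatocyte markers given above, the mean level of 10 macrophage markers in adipose tissue was 2.46 to 3.06 at ZT1, 1.61 to 1.88 in control ZT13 and 0.87 to 1.37 in mutant ZT13. The part of such cells in these values was not tested, and in whole tissue fewer cells of a type and less RNA per cell cannot be told apart.

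None of the other genes was called in adipose tissue. Dnajb1 read 2.95 to 3.44 in control ZT1, 2.93 to 3.17 in mutant ZT1, 3.39 to 3.52 in control ZT13 and 3.44 to 3.67 in mutant ZT13, and its differences over time were 0.26 in control mice (adjusted p = 0.319) and 0.53 in mutant mice (adjusted p = 0.132). Hspb1 read 4.22 to 4.53 and 4.18 to 4.68 in control and mutant ZT1, and 3.74 to 4.17 and 3.92 to 4.30 in control and mutant ZT13. Its differences over time, -0.51 (adjusted p = 0.112) and -0.41 (adjusted p = 0.243), had the same sign in both genotypes and differed by 0.10 (interval -0.58 to 0.78). Hspa8 read 4.92 to 5.78 and 4.90 to 5.88 at ZT1, and 4.91 to 5.02 and 5.25 to 5.60 at ZT13, again control first. All 12 adipose arrays of Hsp90aa1 lay between 2.36 and 3.61, those of Rbm3 between 4.11 and 4.71, and those of the first Cirbp probe between 0.96 and 2.33, and for each the groups next to each other in the order of means overlapped.

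Set against adipose tissue over the 4 conditions, 8 of the 9 differed in liver, as did 75.4% of all genes, 41.9% higher and 33.5% lower in liver. Higher in liver were 5 (Hsph1 by 1.18, Hspa8 by 1.10, Chordc1 by 0.89, Hspa1a by 0.79 and Hsp90aa1 by 0.60). Rbm3, Hspb1 and Cirbp (read from its first probe) were lower in liver, at -0.91, -0.92 and -0.84. Other probes differed. On the second Cirbp probe, liver and adipose means were 1.73 and 1.47 in control ZT1 and 0.52 and 1.81 in mutant ZT1. They were 0.44 and 0.77 in control ZT13 and 0.50 and 0.63 in mutant ZT13. On the Rbm3 probe at chrX:7718033-7718092 they were, in the same order, -0.78 and -0.90, -1.64 and -1.46, -2.21 and -2.77, and -2.01 and -2.27. Dnajb1 was at 0.14 (adjusted p = 0.14). Under quantile normalization Hsp90aa1 and Hspa8 were not called and Dnajb1 was lower in liver (-0.35), which made 3 higher and 4 lower. The genotype effect at ZT1 differed between tissues for Chordc1, by 1.15 (SE 0.28, adjusted p = 0.0445), where 1.41% of all genes did, 0.616% in this direction. It was lost under 14 of 21 alternatives, both slide terms and 9 of the 12 left-out arrays among them. At ZT13 the genotype effect differed for 0 of the 9 by limma, against 0.214% of all genes, with Hspb1 at 0.87 (unadjusted p = 0.00383, adjusted p = 0.296) the 1 at an unadjusted p below 0.05.

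Related genes were read from lists that hold none of the genes above. Their counts stand against shares over all genes. These were 51.2% called over time in control liver (21.3% higher and 29.9% lower) and 45.4% between genotypes at ZT1 (17.9% and 27.5%). For the genotype by time difference the share was 31.2% (18.2% and 13%). Slide terms removed calls in all of these contrasts. Shares were 1.98% over time in mutant liver and 3.04% between genotypes at ZT13 in liver. In adipose tissue they were 15% over time in control and 1.9% in mutant mice. At the lower shares, no call in a short list is near the share of all genes. Median scaling moved the median of all genes from -0.15 to 0.49 over time in control liver and from -0.16 to 0.34 at ZT1. The listed genes were not read under it. Of 22 co-chaperones, which tune HSP70 and HSP90, 10 rose and 1 fell over time in control liver (median 0.46, against -0.15 for all genes), a share called near that of all genes. Bag3, which links HSP70 to selective autophagy, rose by 1.44 (adjusted p = 5.8e-05), the J-domain protein gene Dnaja1 by 1.25 and Cdc37l1, a relative of the HSP90 co-chaperone CDC37, by 1.21. Unc45a, a myosin chaperone, fell by 0.95. In mutant liver Bag3 alone of the 22 rose, by 1.0 (adjusted p = 0.0112), where 1.98% of all genes changed and 1.03% rose. At ZT1, 9 of the 22 were higher and 2 lower in mutant liver, where 45.4% of all genes were called, led by Dnajc2 (0.76), Dnaja1 (0.78) and Cdc37l1 (0.74), with Unc45a (-0.77) and Bag1 (-0.53) lower. At ZT13 it was 0 of 22, against 3.04% of all genes. The genotype by time difference was negative for 4 (Dnajc2 at -0.92, Dnajb6 at -0.90, and Dnaja1 and Cdc37l1 at -0.82) and positive for Unc45a (1.08). In adipose tissue Bag3 and St13, an HSP70-interacting protein, rose in control mice (1.29 and 1.12), and Cdc37l1 rose in mutant mice (1.39).

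Of 13 other chaperones tested in liver, 5 rose and 1 fell over time in control mice (median 0.20), where 51.2% of all genes were called. Hspa2, an HSP70 relative known from the testis, rose by 3.99, the small heat shock protein gene Hspb8 by 1.78 and the ribosome-associated Hspa14 by 1.12, while the small heat shock protein gene Cryab fell by 0.74. None of the 13 was called over time in mutant liver, where 1.98% of all genes were. At ZT1, 5 were higher and 3 lower in mutant liver, against 17.9% and 27.5% of all genes, with Hspa2 at 3.03, Hspa4l at 1.58 and Hspa14 at 1.19, and Cryab at -0.74, Hspe1 at -0.48 and Hspb6 at -0.56. At ZT13, Hspa4l (1.34) and Hspa13 (1.0) were higher in mutant liver, as were 1.51% of all genes. The genotype by time difference was -3.21 for Hspa2, -1.37 for Hspb8 and -1.18 for Hspa14, and 0.97 for Cryab and 0.80 for Hspb6. In adipose tissue Hspa2 rose over time in control mice (2.37) and in mutant mice (1.78), and its genotype effect at ZT1 was larger in liver than in adipose tissue by 2.10.

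Hsf1, the gene of the main heat shock transcription factor, fell by 0.61 over time in control liver (adjusted p = 0.0282) and read 0.02 higher at ZT13 in mutant liver (adjusted p = 0.981). It was lower in mutant liver at ZT1 (-0.71, adjusted p = 0.0159) and at -0.08 at ZT13 (adjusted p = 0.934). Its genotype by time difference was 0.63 (adjusted p = 0.117). Whether these Hsf1 differences hold under median scaling was not tested. Of the other 4 genes of its family or regulators, Hsf2 (1.03) and the HSF-binding protein gene Hsbp1 (1.26) rose over time in control liver, and Hsf5 fell (-1.66). At ZT1 Hsf2 (1.38) and Hsbp1 (1.19) were higher and Hsf5 (-1.75) and Hsf4 (-0.62) lower in mutant liver. Hsf5 gave a genotype by time difference of 2.33, Hsf2 of -0.91 and Hsbp1 of -1.18. In adipose tissue Hsf2 alone was called, rising in control mice (1.84), where 15% of all genes changed, with Hsf1 at -0.92 (adjusted p = 0.0915).

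Of 8 genes tied to temperature-dependent splicing, 3 rose and 2 fell over time in control liver, where 51.2% of all genes were called. Clk4, a kinase of SR splicing factors, rose by 1.64, Rtn3 by 0.86 and Rbmx by 0.66. Srsf5 and U2af1l4, a splicing factor whose own splicing follows body temperature, fell by 0.70 and 0.61. None was called over time in mutant liver or between genotypes at ZT13, where 1.98% and 3.04% of all genes were. At ZT1 Clk4 (1.26), Srsf7 (0.94) and Rtn3 (0.60) were higher and U2af1l4 (-0.59) lower in mutant liver, and the genotype by time difference was -1.61 for Clk4 and 0.85 for Srsf2. In control adipose tissue Clk4 (1.58) and Rbmx (1.07) rose and Srsf2 fell (-1.20).

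As a description with no test, the genes whose pattern was most like that of 4 of the genes were found by Pearson's r. It was taken over the 24 arrays, after each tissue's mean was removed. Only ordinary gene symbols were ranked, and names such as Rik clones and Gm models were left out. The arrays share slides and groups. For Hsph1 they were Bysl (0.863), Odc1 (0.857) and Rpl7l1 (0.839), and for Hspa8 Ruvbl1 (0.841), Akr7a5 (0.839) and Ech1 (0.827). For Cirbp, read from its first probe, they were Fam76a (0.874), Inpp5k (0.833) and Tmco4 (0.827). For Rbm3 they were Yod1 (0.853), C80913 (0.799) and Usp25 (0.795).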

How the data were processed

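RNA from 24 samples (8 groups of 3) was hybridised to 1-colour Agilent arrays. The deposited scanner files give spot intensity from Agilent Feature Extraction 10.7.3.1, with background and spatial trend subtracted within each array, per the file headers. The authors' deposited value table holds log2 values of the same signal minus 1 constant per array, which matched the scanner values within 0.01 for 100% of values on each array (array medians -3.91 to -3.02, 75th percentiles near 0). Samples were grouped by their labels. The number of arrays limits the precision.

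Control spots and outlier-flagged spots were left out, log2 of the processed signal was taken minus each array's 75th percentile, and a probe was kept where some group had it well above background on each of its 3 arrays. The brightest probe stood for a gene (brightest over both tissues in the fit of 24 arrays). Contrasts were fitted with limma 3.58.1 in R 4.3.3, two-sided, with Benjamini-Hochberg adjustment over all genes and a threshold of 0.05. The procedure was tested on simulated data. Array names were matched to RefSeq symbols by accession for 26762 probes. Probe positions are from the array design (mm9), without exon or UTR annotation. Promoter windows are from RefSeq (GRCm38.p6).

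The genes and lists were chosen with earlier results of these data known. Of the lists, the 3 called genes of lowest p per direction and contrast, and always Hsf1, are named. Arntl and Dbp serve for orientation. For Hspa8, Hsph1, Cirbp and Rbm3 the 3 genes of highest r among ordinary symbols are named. Alternatives were quantile normalization, median scaling, the deposited table, normexp background (offset 50), no filter on dim probes, every probe fitted, 1 fit of 24 arrays, slide as a fixed or random block, the replicate number as a block, within-slide fits and each array left out. The 2 comparisons of the change over time between tissues were added after the data were seen. Python 3.11.15 and matplotlib 3.10.9 drew the figures.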

Additional observations from a re-analysis of the deposited data

Results flagged for a closer look

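In 7 results the effect of 1 contrast differed between 2 genotypes or 2 tissues by a limma test of the difference itself. The change over time in liver differed between mutant and control mice for Cirbp by 1.27 (adjusted p = 0.00769) and for Hspb1 by 1.26 (adjusted p = 0.00398). The Cirbp value is from the probe on which slide 1 arrays read high, and the other Cirbp probe gave -0.74. The genotype effect at ZT1 differed between liver and adipose tissue for Chordc1 by 1.15 (adjusted p = 0.0445). The change over time in control mice was larger in liver than in adipose tissue for Hspa1a by 2.25 (adjusted p = 0.00261), for Hsph1 by 1.88 (adjusted p = 0.00923) and for Dnajb1 by 0.94 (adjusted p = 0.0331). In mutant mice it was larger for Hspa1a by 2.76 (adjusted p = 0.0035).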

How the results depend on the processing

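Of 135 combinations of gene and contrast, the deposited table kept all 135 on the same side of the threshold. Quantile normalization lost 5 calls and gained 1, median scaling lost 5 and gained 6, normexp background gained 3, and no filter on dim probes lost 4. Slide as a fixed term lost 17 and as a random term 16. Counts of called genes among the 9 that moved by over 1.5 times were these; with every probe fitted, a gene counts where any of its probes passed, while the probes used elsewhere lost and gained 0 calls. The liver genotype contrast at ZT1 went from 3 to 5 under median scaling and with every probe fitted (by 1 other probe each of Hsph1 and Hspa8), and to 0 under both slide terms. At ZT13 it went from 2 to 1 under median scaling, no filter, the fit of 24 arrays, both slide terms and the replicate block. The control liver change over time went from 9 to 0 (slide fixed) and 3 (slide random), that of mutant liver from 4 to 1 and 2. The liver genotype by time count went from 2 to 1 in the fit of 24 arrays and 0 under both slide terms. The control adipose change over time went from 0 to 1 under normexp background, every probe fitted (by the Rbm3 probe that read high on slide 1) and the fit of 24 arrays. That of mutant adipose tissue went from 1 to 3 in the fit of 24 arrays and 0 under slide as a fixed term and the replicate block. The ZT1 genotype effect between tissues went from 1 to 0 under quantile normalization, no filter, both slide terms and the replicate block. Signs reversed for Dnajb1 between tissues under quantile normalization (-0.35) and, with slide fixed, for Cirbp in the liver genotype contrast at ZT1 (0.42), the control liver change over time (0.68) and the genotype by time difference (-0.20), and for Hsp90aa1 at ZT1 (-0.026). The fixed slide term joins slide 1 to the others through mutant adipose ZT1 alone, and the cause of these reversals was not tested. With each array left out, counts ranged from 2 to 5 (liver genotype, ZT1), 1 to 1 (ZT13), 9 to 9 (control liver over time), 3 to 4 (mutant liver), 2 to 3 (liver genotype by time), 0 to 2 (mutant adipose over time), 8 to 9 (liver against adipose), 0 to 1 (ZT1 genotype effect between tissues), 2 to 4 (control change between tissues) and 1 to 4 (mutant change between tissues), and stayed at 0 in the other 5. What a shared replicate number means is not stated, so whether liver and adipose samples came from the same animal is not known. Deviations of same-numbered arrays correlated at -0.51 to 0.35 within a tissue (36 pairs, median -0.04), across groups of different genotype or time. Between liver and adipose tissue of 1 genotype and time they correlated at -0.26 to 0.14 (12 pairs, median 0.002). Differently numbered arrays there gave -0.45 to 0.51 (24 pairs, median -0.00011). Tests between tissues took the arrays as independent. The replicate block lost 4 calls and gained 0 over the 135 combinations. Both the Hspa1a rise in mutant liver and its tissue differences passed under every alternative run. All 15 probes were well above background on every array. The Rbm3 probe at chrX:7718033-7718092 still read as low as -3.27, and the effect of background on dim probes was not tested beyond the normexp setting.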
